A study of Mus musculus with 40 samples.

Results

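The Id genes and the Smad-based feedback of bone morphogenetic protein (BMP) signalling were examined in 22 RNA sequencing libraries of mpkCCD cells, immortalized mouse cells from the cortical collecting duct of the kidney. The genes are the 4 inhibitor of DNA binding genes Id1, Id2, Id3 and Id4, and the 6 signalling genes Smad6, Smad7, Bmp4, Bambi, Smad1 and Smad5. They were taken by symbol and are 10 of the 55414 genes listed. Of the 10, the 7 genes Id1, Id2, Id3, Smad6, Smad7, Smad1 and Smad5 passed the filter, a mean level of 1 TPM or more (transcript abundance, corrected for transcript length and scaled to sum to the same total in every library). Id4, Bmp4 and Bambi did not pass it in any comparison and were not tested.

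The study asks what the CREB-family transcription factors do in the vasopressin response of Aqp2, the gene of the water channel aquaporin-2. Cells of every group were grown on permeable supports and received 0.1 nM dDAVP, a vasopressin analogue, for 72 h in serum-free medium with dexamethasone, so no group lacked the hormone. The libraries fall into 3 runs of consecutive library numbers, which the labels do not call batches. Run 1 holds control clones 1 to 5, which are unmodified (labelled WT), and 5 libraries labelled ATF1-KO. Run 2 holds control clones 6 to 8 and 3 libraries labelled ATF1/CREB1-KO, and run 3 holds control clones 9 to 11 and 3 libraries labelled ATF1/CREB1/CREM-KO. Each knockout label was compared with the controls from the same run. Replicates of a knockout may or may not be separate clones, which the labels leave unsaid, so the p-values measure the spread between these libraries, which may be technical.

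BMP ligands bind pairs of serine/threonine kinase receptors, which phosphorylate Smad1, Smad5 and Smad9. These enter the nucleus with Smad4 and switch on target genes, of which the Id genes are the best known. Smad6, Smad7 and the pseudoreceptor Bambi are themselves targets and act back on the pathway as inhibitors. Id proteins have a helix-loop-helix domain but no DNA-binding domain, and hold E proteins (Tcf3, Tcf4 and Tcf12) away from DNA. In the developing kidney the pathway limits branching of the ureteric bud, from which collecting ducts arise. ATF1, CREB1 and CREM bind the cAMP response element, TGACGTCA, and its core TGACG.

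Sequence in front of the transcription start was available from RefSeq (GRCm38.p6) for 7 of the 10 genes and not for Id1, Smad7 and Bambi. The 250 bases before the start are printed for Id2, Id3 and Smad1, because they show the range of matches found: a GC-rich Smad1/5 element in Id2 and the core of the cAMP response element, far from the start in Id3 and close to it in Smad1. Capitals mark GGCGCC or the core (TGACG, or CGTCA on the other strand), and each sequence reads 5′ to 3′ towards the start of its gene. Id2 lies at chr12:25096093-25096342 (minus strand), Id3 at chr4:136143572-136143821 (plus strand) and Smad1 at chr8:79399429-79399678 (minus strand).
Id2: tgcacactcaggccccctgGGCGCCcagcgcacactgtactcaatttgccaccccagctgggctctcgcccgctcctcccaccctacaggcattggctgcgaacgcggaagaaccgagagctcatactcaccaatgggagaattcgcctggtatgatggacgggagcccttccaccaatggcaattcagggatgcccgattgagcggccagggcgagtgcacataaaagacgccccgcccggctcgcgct
Id3: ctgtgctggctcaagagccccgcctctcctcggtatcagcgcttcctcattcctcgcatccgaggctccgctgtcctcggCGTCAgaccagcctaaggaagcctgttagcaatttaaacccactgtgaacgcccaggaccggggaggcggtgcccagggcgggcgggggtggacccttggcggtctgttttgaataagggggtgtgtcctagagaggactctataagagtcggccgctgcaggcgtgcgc
Smad1: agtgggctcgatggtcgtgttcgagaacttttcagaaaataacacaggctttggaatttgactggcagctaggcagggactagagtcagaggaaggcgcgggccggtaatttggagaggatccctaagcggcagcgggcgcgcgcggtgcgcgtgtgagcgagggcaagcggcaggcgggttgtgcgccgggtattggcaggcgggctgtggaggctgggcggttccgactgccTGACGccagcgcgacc

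The match in Id2 began 231 bases before the start, that in Id3 170 bases and that in Smad1 16 bases before it. Each of 4 motifs was searched on both strands of 32851 promoter windows of this length. GGCGCC was in 9.59% of them, TGACG in 17.8%, TGACGTCA (which contains TGACG) in 1.55% and the short Smad box GTCT in 82.9%. TGACGTCA was in none of the windows of the 7 genes. TGACG was also in the window of Id4 and in 1 of the 3 windows of Smad5, and GGCGCC in that of Id4 and another of Smad5. Smad6 and Bmp4 had only GTCT. Id1, Id2, Id3, Smad6, Smad7 and Smad1 overlap no other gene in the GENCODE annotation of the reference.

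Sequencing depth is unknown, because TPM does not keep it, and between 17296 and 20703 genes were above 0 per library. The 6 libraries of run 2 had another composition than the rest. Ribosomal protein genes (89) took between 7.21% and 15.3% of their TPM, against 2.69% to 4.15% elsewhere, and the lowest share in run 2 was that of ATF1/CREB1-KO replicate 3. As a check of the labels, Creb1 was at 61.0% of the own-run control mean under ATF1/CREB1-KO (limma adjusted p = 0.471) and at 49.6% under ATF1/CREB1/CREM-KO (adjusted p = 0.00305). Atf1 was at 63.0%, 77.8% and 80.8% in the 3 labels, in the order above, with adjusted p of 0.555, 0.635 and 0.304. Crem was at 134% in the libraries labelled ATF1/CREB1/CREM-KO (adjusted p = 0.116). It was at 133% under ATF1-KO and 252.5% under ATF1/CREB1-KO (adjusted p of 0.628 and 0.467). These are RNA levels and not protein, so they cannot decide whether the label holds, and "labelled" is kept throughout. Aqp2 was between 15.1 and 16.1 TPM under ATF1/CREB1/CREM-KO, against 641 to 2279 TPM in control clones 9 to 11. Epithelial markers (Krt8, Krt18, Krt7, Epcam, Cdh1) were high in all 22 libraries. Of the 11 principal cell markers of the collecting duct, 8 had a mean of at least 1 TPM, and Scnn1b, Elf5 and Aqp4 did not. The 6 intercalated cell markers summed to between 18.6 and 114 TPM. Most of this was Atp6v1b1 (14.4 to 103 TPM) and Aqp6 (0.67 to 20.8 TPM), while Foxi1, Slc4a1, Slc26a4 and Atp6v0d2 were at most 0.2 TPM. Markers of the remaining cell types were low but not all absent. The 4 fibroblast markers summed to at most 1.05 TPM in any library and the 4 endothelial markers to at most 0.52 TPM. The 4 leukocyte markers summed to between 1.76 and 13.6 TPM, mostly Cd68 (1.11 to 13.1 TPM), with Lyz2 at 0 in every library. The 5 proximal tubule markers summed to between 1.38 and 25.5 TPM, nearly all Lrp2 (1.1 to 25.2 TPM), with Slc22a6 at 0 in every library.

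Id2 was by far the most abundant of the 10 genes. In the 8 control clones of runs 1 and 3 it was at 239 TPM ± 39.3 (SD, n = 8). Smad1 followed at 36.0 TPM ± 5.20, Smad5 at 27.3 TPM ± 5.81 and Id1 at 22.7 TPM ± 6.59 (SD, n = 8 each). Smad7 was at 13.5 TPM ± 1.87, Smad6 at 12.9 TPM ± 2.25 and Id3 at 9.15 TPM ± 4.76 (SD, n = 8 each). The ranges of each pair of neighbours in this order overlapped, except that every Id2 value lay above every Smad1 value. Id4 was between 0 and 0.06 TPM in all 22 libraries and Bmp4, a BMP ligand, between 0 and 0.15 TPM. Bambi was listed at 0 in all 22.

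In run 2 the Smad genes were listed much lower and the Id genes were not. The means in control clones 6 to 8, as a share of the mean in the other 8 control clones, were 19.4% for Smad1, 26.5% for Smad5, 27.0% for Smad6 and 33.4% for Smad7. The median share over 13334 genes was 31.3%, with Smad7 above it and Smad1, Smad5 and Smad6 below it. For Id1, Id2 and Id3 the shares were 82.4%, 87.6% and 113%. These values separate runs, not genotypes, and no test was made of them, so levels are compared below only within a run.

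**Figure D1:**
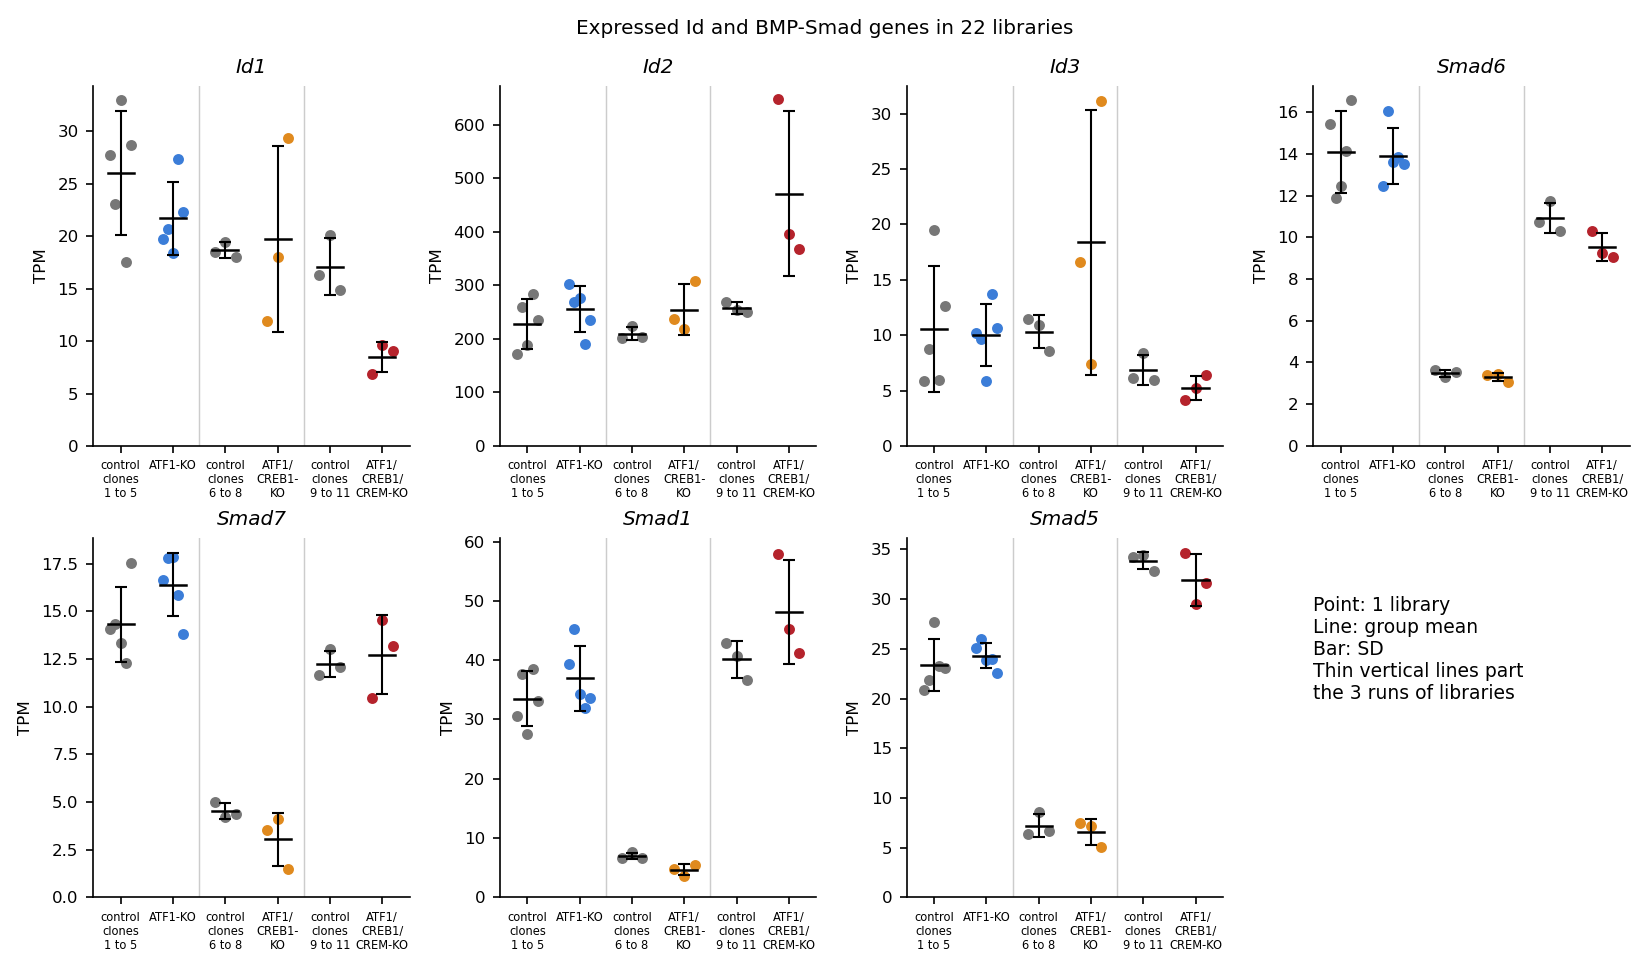
TPM (y axis, linear, from 0) of the 7 expressed genes in each library, by group; points are libraries, the horizontal line is the group mean, the bar is the SD and thin vertical lines part the runs. Id1 is lowest in the 3 ATF1/CREB1/CREM-KO libraries (6.89 to 9.61 TPM) and Id2 highest there (368 to 649 TPM), while the 4 Smad genes separate run 2 from the other runs.

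Id1 fell in the libraries labelled ATF1/CREB1/CREM-KO and was the only 1 of the 7 tested genes called in any of the 3 comparisons. It was at 16.3, 20.1 and 14.8 TPM in control clones 9 to 11 and at 6.89, 9.61 and 9.05 TPM in ATF1/CREB1/CREM-KO replicates 1 to 3. All 3 knockout libraries lay below all 3 control clones, and their mean was 49.8% of the control mean. Among all genes tested, 20.2% were likewise lower in all 3 knockout libraries. On the log2(TPM + 1) scale, which understates changes of low genes, Id1 fell by 0.93 (SE 0.17, 95% interval -1.34 to -0.52, limma adjusted p = 0.0252, n = 3 and 3). Of all 13258 genes tested, 9.17% were called at an adjusted p under 0.05 in this comparison, 3.91% higher and 5.26% lower. With 1 called gene of the 7, the count is near this background. Leaving out control clone 9, 10 or 11 gave adjusted p of 0.0985, 0.0792 and 0.0706, and leaving out knockout replicate 2 or 3 gave 0.0609 and 0.0703, so each of these ended the call, as did testing without a filter on low values (0.0607). In bulk libraries, fewer cells that express a gene and less of its RNA per cell cannot be told apart.

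Id2 went the other way without passing the threshold. It was at 270, 254 and 249 TPM in control clones 9 to 11 and at 649, 397 and 368 TPM in ATF1/CREB1/CREM-KO replicates 1 to 3. Every knockout library was above every control clone, and replicate 1, which had the lowest Id1, had the highest Id2. Groups did not overlap, with the knockout higher, for 14.5% of all genes tested here. The log2 difference was 0.82 (SE 0.21, 95% interval 0.33 to 1.32, limma adjusted p = 0.0576). Without replicate 1 it was smaller, 0.57, and passed the threshold (adjusted p = 0.00259).

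Id3 was at 6.12, 8.41 and 5.99 TPM in control clones 9 to 11 and at 4.19, 5.21 and 6.37 TPM in the ATF1/CREB1/CREM-KO libraries. These groups overlapped, and the log2 difference of -0.33 (95% interval -0.81 to 0.16) did not pass the threshold (limma adjusted p = 0.345). The 3 Id genes therefore did not share 1 direction in these libraries.

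The makeup of the Id family followed from these values. Summed over the 4 genes, Id TPM had a mean of 282 with an SD of 11.0 over the 3 control clones of run 3. With ATF1/CREB1/CREM-KO the mean was 485 and the SD 152 (n = 3). Id2 made up between 89.9% and 92.3% of it in control clones 9 to 11 and between 96.0% and 98.3% in these knockout libraries. For each TPM of Id1 there were 15.3 TPM of Id2 in control clones 9 to 11, with an SD of 2.33 (n = 3). In the knockout libraries the ratio was 94.1, 41.3 and 40.7, so the 2 lower values were already above every control clone, the highest of which was at 16.8. Of the 11 principal cell markers, Aqp2 fell in the same libraries, and the summed TPM of the other 10 overlapped, from 593 to 1381 under ATF1/CREB1/CREM-KO and from 930 to 1371 in control clones 9 to 11. Of those 10, Avpr2, Gata3 and Fxyd4 were lower in every knockout library, Aqp3 was higher in every one, and 6 overlapped. Among these 6, Hsd11b2 ran from 34.7 to 558 TPM in the knockout libraries, against 58.3 to 72.1 TPM in the control clones. The upper end of the knockout sums, and with it the overlap, rests largely on Hsd11b2. The part of these markers in the Id values was not tested.

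**Figure D2:**
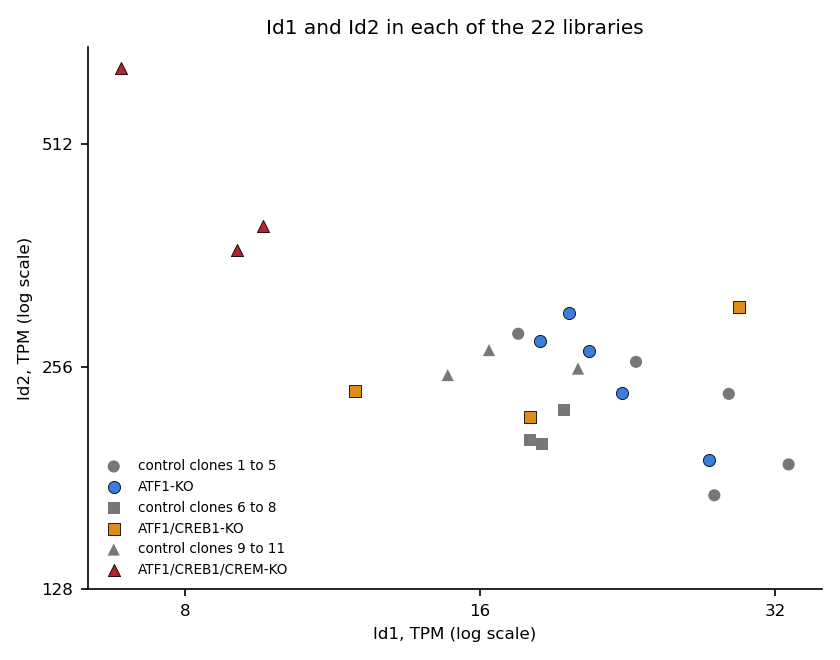
Id1 (x axis) and Id2 (y axis) in each of the 22 libraries, both in TPM on log scales; grey symbols are control clones, coloured symbols knockout labels, and the symbol shape gives the run. The 3 ATF1/CREB1/CREM-KO libraries lie apart at the upper left, below 10 TPM of Id1 and above 360 TPM of Id2.

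Among the 11 control clones alone, libraries with more Id1 had less Id2. Pearson's r of the 2 genes, each on the log2(TPM + 1) scale and centred on its own-run control mean, was -0.68 (n = 11). The corresponding values were 0.73 for Id1 with Id3 and 0.87 for Id2 with Smad1. Together with the r of Id1 and Id2, they are the largest, whatever the sign, among all pairs of the expressed Id and Smad genes. The next was -0.62 for Id1 with Smad1. Picked as extremes of many pairs, the values quoted overstate how closely these genes go together. These are descriptions of libraries that share runs and a fixed TPM total, and carry no test.

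With ATF1-KO, the Id genes differed little from their control clones. Id1 was at 27.7, 23.1, 33.0, 17.5 and 28.7 TPM in control clones 1 to 5 and at 19.7, 20.7, 18.4, 27.4 and 22.4 TPM in the 5 libraries labelled ATF1-KO. Id2 was at 171, 260, 189, 284 and 235 TPM in the same control clones and at 303, 269, 277, 191 and 236 TPM in the knockout libraries. Both genes overlapped between the groups, with log2 differences of -0.23 (95% interval -0.59 to 0.12) for Id1 and 0.17 (95% interval -0.18 to 0.52) for Id2, and limma adjusted p of 0.746 and 0.793. Id3 spread widely in both groups, from 5.89 to 19.5 TPM in control clones and from 5.84 to 13.7 TPM in knockout libraries (log2 difference 0.02, adjusted p = 0.991). In this comparison limma called 0 of 13318 genes, or 0% (7.61% had an unadjusted p under 0.05), and none of the 7 genes had an unadjusted p under 0.05.

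With ATF1/CREB1-KO, the 3 libraries disagreed among themselves in Id1 and Id3. Id1 was at 18.5, 19.5 and 18.0 TPM in control clones 6 to 8 and at 11.9, 18.0 and 29.4 TPM in ATF1/CREB1-KO replicates 1 to 3. Id3 was at 11.4, 10.9 and 8.61 TPM in the control clones and at 16.6, 7.40 and 31.2 TPM in the knockout libraries. Knockout libraries lay on both sides of the control clones in both genes, and replicate 3 was the highest in both. The log2 differences were -0.01 for Id1 (95% interval -0.74 to 0.73, limma adjusted p = 0.995) and 0.58 for Id3 (95% interval -0.49 to 1.65, adjusted p = 0.708). Without replicate 3, whose ribosomal protein share stood apart in its run, they were -0.33 (adjusted p = 0.4) and 0.11 (adjusted p = 0.884), and the part of that share in these values was not tested. Id2 was at 201, 223 and 204 TPM in the control clones and at 237, 219 and 308 TPM in the knockout libraries, 2 of which were above every control clone (log2 difference 0.27, 95% interval -0.21 to 0.75, adjusted p = 0.707). Limma called 0.0715% of 12579 genes in this comparison and none of the 7.

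Smad6 and Smad7, the inhibitory Smads, were not called under any label. Smad6, which acts mainly on the BMP branch, was at 10.7, 11.7 and 10.3 TPM in control clones 9 to 11 and at 10.3, 9.26 and 9.08 TPM in ATF1/CREB1/CREM-KO replicates 1 to 3. The knockout libraries were all lower, by a margin of 10.30 against 10.32 TPM at the closest, and the log2 difference was -0.18 (95% interval -0.47 to 0.11, limma adjusted p = 0.394). Groups that did not overlap, with the knockout lower, were found for 20.2% of all genes tested in this comparison. Under ATF1-KO and ATF1/CREB1-KO the Smad6 log2 differences were -0.01 (95% interval -0.25 to 0.22) and -0.06 (95% interval -0.47 to 0.35).

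Smad7, which restrains both BMP and TGF-beta receptors, was at 5.00, 4.19 and 4.39 TPM in control clones 6 to 8 and at 3.51, 4.13 and 1.5 TPM in the libraries labelled ATF1/CREB1-KO. All 3 knockout libraries were lower, replicate 3 by far the most, and the log2 difference was -0.51 (95% interval -1.20 to 0.18, limma adjusted p = 0.623). Of all genes tested, 12.4% were lower in every knockout library of this comparison. Without replicate 3 it was -0.20. Under ATF1-KO, Smad7 ranged from 13.8 to 17.8 TPM against 12.3 to 17.5 TPM in control clones 1 to 5 (log2 difference 0.19, adjusted p = 0.713). Under ATF1/CREB1/CREM-KO it ranged from 10.5 to 14.5 TPM, on both sides of the 11.6 to 13.0 TPM of its control clones (log2 difference 0.04, adjusted p = 0.885).

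Smad1 and Smad5 carry the BMP signal to the nucleus. Smad1 was at 6.62, 7.64 and 6.72 TPM in control clones 6 to 8 and at 4.84, 3.66 and 5.54 TPM in the libraries labelled ATF1/CREB1-KO. All 3 knockout libraries were below all 3 control clones, as for 12.4% of all genes tested in that comparison. The log2 difference of -0.51 (SE 0.19, 95% interval -0.96 to -0.05) had the only unadjusted p under 0.05 among the 7 genes (0.0334, against 9.53% of all genes) and a limma adjusted p of 0.487. Under ATF1/CREB1/CREM-KO, Smad1 was at 58.0, 45.3 and 41.2 TPM against 43.0, 40.7 and 36.7 TPM in control clones 9 to 11. Here 2 knockout libraries were above every control clone, replicate 1 again the furthest out, and the log2 difference was 0.25 (95% interval -0.10 to 0.59, adjusted p = 0.32). Under ATF1-KO it ranged from 32.0 to 45.3 TPM against 27.6 to 38.4 TPM (log2 difference 0.14, adjusted p = 0.781). Smad5 overlapped its control clones under each label, with log2 differences of 0.06, -0.12 and -0.09 in the order of the labels and limma adjusted p of 0.873, 0.863 and 0.616. Smad9, the third Smad of the BMP branch, was not tested, since it was under the filter in each comparison.

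**Figure D3:**
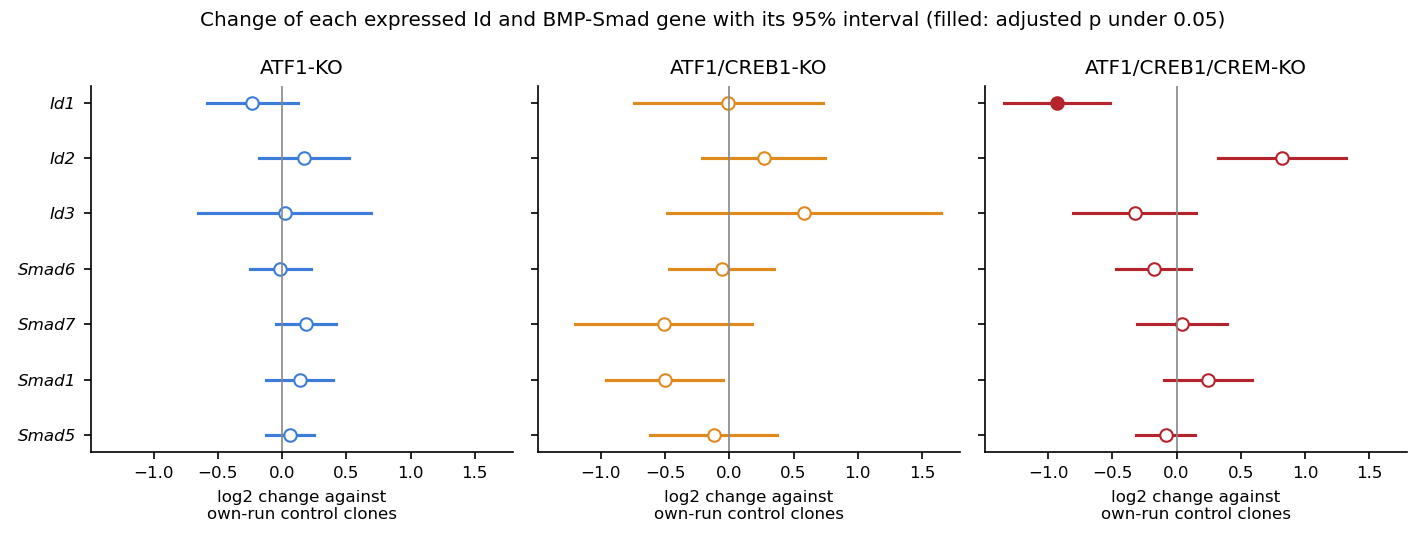
Change of the 7 expressed genes (rows) against own-run control clones under each knockout label (panels), in log2(TPM + 1) units on the x axis; points are estimates, bars their 95% intervals, and a filled point marks an adjusted p under 0.05. Id1 under ATF1/CREB1/CREM-KO is the single filled point, and the Id2 interval there lies above 0.

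Whether the genes changed differently under the 3 labels was tested as a difference between own-run changes, over all 22 libraries. None of the 7 genes passed in any of the 3 tests, in which 0.188%, 3.57% and 1.46% of 13295 genes were called. For Id1, the change under ATF1/CREB1/CREM-KO minus that under ATF1/CREB1-KO was -0.92 (95% interval -1.64 to -0.20, limma adjusted p = 0.457), and minus that under ATF1-KO it was -0.70 (95% interval -1.34 to -0.05, adjusted p = 0.286). For Id2 the same differences were 0.55 (adjusted p = 0.659) and 0.65 (adjusted p = 0.241). Smad1 had the smallest unadjusted p of the 7, 0.00379, for a difference of 0.75 between ATF1/CREB1/CREM-KO and ATF1/CREB1-KO (95% interval 0.27 to 1.23, adjusted p = 0.311). The Id1 fall is therefore not shown to be limited to 1 label.

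Tcf3, Tcf4 and Tcf12 encode the E proteins that Id proteins bind. None was called against its own-run control clones. Tcf4 was at 29.4, 17.9, 32.4, 21.8 and 18.2 TPM in control clones 1 to 5 and at 12.5, 16.6, 14.7, 19.0 and 14.4 TPM in the libraries labelled ATF1-KO. It was thus mostly lower there, with 1 knockout library inside the control range (log2 difference -0.58, limma adjusted p = 0.577). In ATF1/CREB1/CREM-KO it was at 31.5, 31.1 and 28.9 TPM against 26.2, 23.7 and 25.3 TPM, all higher, as for 14.5% of genes (log2 difference 0.27, adjusted p = 0.124). The 2 changes differed by 0.85 (95% interval 0.37 to 1.33, adjusted p = 0.046), and 4 of 6 alternatives ended that call with adjusted p from 0.0509 to 0.0896. Tcf3 was at 89.8, 113 and 117 TPM in the libraries labelled ATF1/CREB1/CREM-KO, all below the 121 to 134 TPM of control clones 9 to 11, as for 20.2% of genes (log2 difference -0.27, adjusted p = 0.203). Tcf12 differed by -0.02 there (adjusted p = 0.953). Under ATF1/CREB1-KO, Tcf4 was also higher in every knockout library, at 7.23 to 8.00 TPM against 5.57 to 6.61 TPM, as for 6.67% of genes (adjusted p = 0.594). Tcf3 was lower in every one, at 21.8 to 23.2 TPM against 27.2 to 27.9 TPM, as for 12.4% (adjusted p = 0.632). The Tcf4 change under ATF1/CREB1-KO minus that under ATF1-KO was 0.90 (limma adjusted p = 0.0572). This difference was called with a pseudocount of 0.1, a filter of 5 TPM and quantile normalization (adjusted p of 0.0465, 0.0494 and 0.0166), and not in the other alternatives.

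Beyond the 10 genes, 103 others of BMP and TGF-beta signalling were listed by role. Limma called none of the 70 tested under ATF1-KO, of which 12 had an unadjusted p under 0.05, against 7.61% of all genes. It called none of the 65 tested under ATF1/CREB1-KO, of which 5 had such a p, against 9.53% of all genes. Under ATF1/CREB1/CREM-KO, 2 of 72 rose and 6 fell, 11.1% against 9.17% of all genes, and the median log2 difference was -0.07 against -0.05 over all genes. Of these 72, 25 had an unadjusted p under 0.05, against 27% of all genes. By role, 0 of 7 in the ligand list (which also holds the protease gene Bmp1 and Gdf15) and 1 of 9 receptors and co-receptors were called. So were 2 of 6 in the list of secreted antagonists (which also holds the membrane protein gene Crim1), 1 of 17 Smad partners and modulators and 3 of 15 genes of the TGF-beta branch. The last, Hes1, a Notch target that also responds to BMP, stood in 2 lists, the other BMP targets (1 of 9) and the helix-loop-helix partners of Id proteins (1 of 10).

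In the TGF-beta branch 3 genes were called lower under ATF1/CREB1/CREM-KO. Tgfb3, a TGF-beta ligand, was at 24.1, 18.2 and 22.99 TPM in control clones 9 to 11 and at 3.26, 1.22 and 1.35 TPM in the libraries labelled ATF1/CREB1/CREM-KO (log2 fall by 3.01, limma adjusted p = 0.00292). Ccn2, a matricellular TGF-beta target, was at 141, 137 and 152 TPM in the control clones and at 36.3, 61.3 and 61.6 TPM in the knockout libraries (log2 difference -1.46, adjusted p = 0.0109). Pmepa1, a TGF-beta target that restrains receptor-regulated Smads, was at 54.5, 56.2 and 56.0 TPM in the control clones and at 20.7, 28.2 and 26.6 TPM in the knockout libraries (log2 difference -1.12, adjusted p = 0.00628). None of these 3 genes had overlapping groups, against 20.2% of all genes with the knockout lower. The 12 other tested genes of the branch, Tgfb1, Smad2 and Smad3 among them, were not called. Tgfb3 and Pmepa1 were called with each of the 6 libraries left out in turn, and Ccn2 was not without control clone 9 (adjusted p = 0.0628) or 11 (adjusted p = 0.0578).

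Of the tested genes in the ligand and receptor lists of the BMP branch, only Acvr2a was called under ATF1/CREB1/CREM-KO. Bmp7, the most abundant BMP ligand tested, had a mean of 121 TPM in control clones 9 to 11 and of 87.9 TPM under ATF1/CREB1/CREM-KO (SDs 4.64 and 17.9, n = 3 each; log2 difference -0.48, limma adjusted p = 0.104). Acvr2a, a type II activin and BMP receptor, rose from 79.6, 74.9 and 73.5 TPM to 112, 99.2 and 115 TPM (log2 difference 0.51, adjusted p = 0.0206). The type I receptor genes Bmpr1a and Acvr1 and the type II receptor gene Bmpr2 were not called (log2 differences -0.13, -0.65 and -0.13, adjusted p of 0.596, 0.0628 and 0.639). Smad4, the common partner, was at 110 TPM ± 9.11 in the control clones and 142 TPM ± 24.2 in the knockout libraries (SD, n = 3 each; adjusted p = 0.174).

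Among genes that hold the pathway back, Htra1, a secreted protease that binds TGF-beta family ligands, fell from 18.6, 19.0 and 22.4 TPM to 7.08, 3.33 and 3.84 TPM under ATF1/CREB1/CREM-KO (log2 difference -1.92, limma adjusted p = 0.00827). Skil, a co-repressor of Smads, fell from 50.8, 41.1 and 45.7 TPM to 21.9, 25.1 and 28.4 TPM (log2 difference -0.85, adjusted p = 0.0147). Crim1, a membrane protein that binds BMPs, rose from 37.5, 31.5 and 38.8 TPM to 48.2, 52.3 and 60.8 TPM (log2 difference 0.57, adjusted p = 0.042). Hes1, listed as a BMP target and not as an inhibitor, fell from 78.5, 88.3 and 77.8 TPM to 53.0, 60.0 and 60.2 TPM (log2 difference -0.49, adjusted p = 0.0281). In each of these 4 genes the knockout libraries did not overlap the control clones, as for 20.2% of all genes lower and 14.5% higher. With 1 library left out, the calls of Acvr2a, Crim1, Htra1, Skil and Hes1 were kept in 2, 1, 4, 3 and 1 of 6 cases. Leaving out control clone 9 gave limma adjusted p of 0.0768, 0.126, 0.0535, 0.0745 and 0.0998 for these 5 genes, and leaving out control clone 11 gave 0.089, 0.102, 0.051, 0.0706 and 0.088. Acvr2a, Crim1 and Hes1 were also lost without control clone 10 (0.0698, 0.109 and 0.083) or knockout replicate 3 (0.0809, 0.124 and 0.0788), and Crim1, Skil and Hes1 without knockout replicate 2 (0.117, 0.0579 and 0.0823). Under ATF1/CREB1-KO none of the 5 genes was called. Htra1 was at 0.8 to 4.21 TPM against 4.54 to 5.37 TPM in control clones 6 to 8. Skil was at 4.57 to 6.08 TPM against 8.13 to 8.9 TPM. These 2 and Hes1 were lower in every knockout library there, as for 12.4% of genes (log2 differences -0.90, -0.54 and -0.24). Acvr2a was higher in every one, as for 6.67% of genes (0.18), and Crim1 overlapped (0.25). Limma adjusted p was 0.518, 0.443, 0.707, 0.759 and 0.824 in that order. Whether strand was used in counting is not given in the sources used here, and Htra1, Tgfb3, Acvr2a, Crim1 and Ccn2 overlap genes on the opposite strand (Fgfr2, Ttll5, Orc4, Fez2 and Gm15270), whose reads could not then be told apart from theirs.

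**Figure D4:**
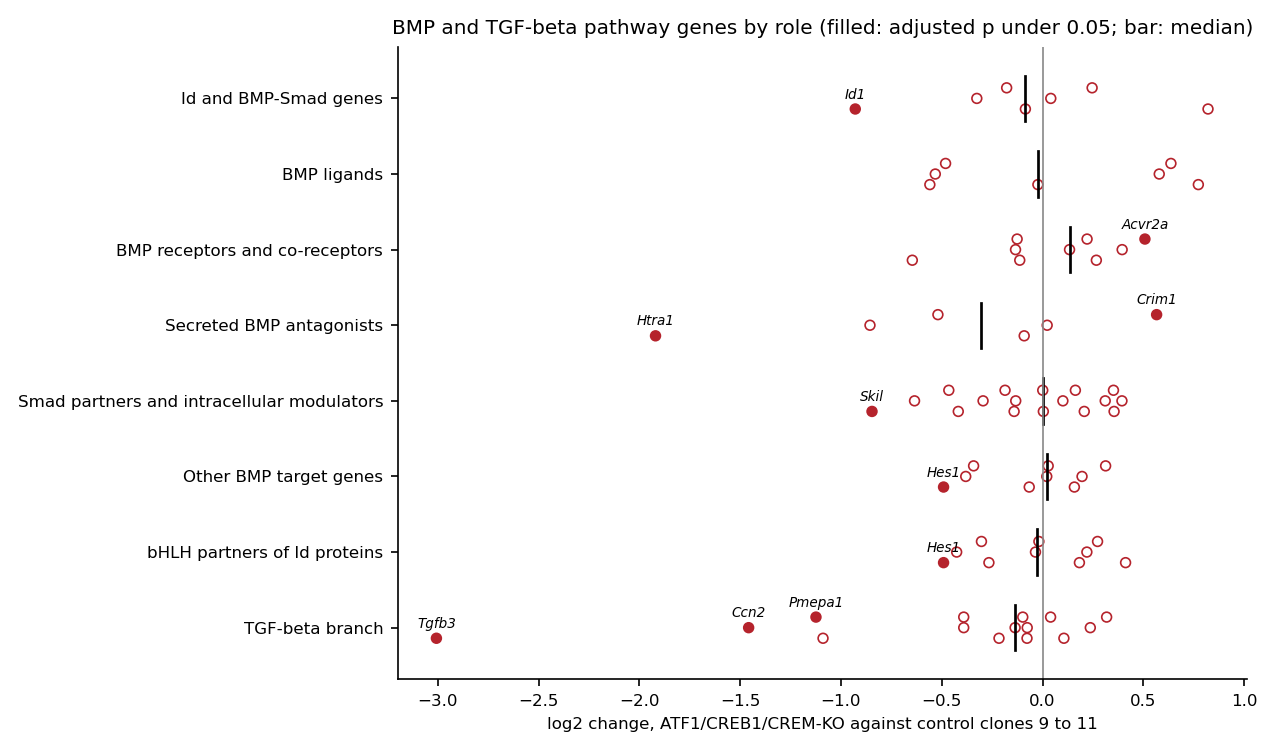
Change of each tested BMP and TGF-beta pathway gene under ATF1/CREB1/CREM-KO against control clones 9 to 11 (x axis, log2(TPM + 1) units), by role (y axis, vertical offsets within a row only separate points); filled points are named and have an adjusted p under 0.05, and black bars are medians. Most lists centre near 0, and Tgfb3 (-3.01) and Htra1 (-1.92) lie furthest to the left.

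The 5 genes whose levels followed Id1 most closely over the 22 libraries were chosen by Pearson's r on the log2(TPM + 1) scale, centred on own-run control means, among the 9170 genes whose mean was 10 TPM or higher. They were Scx, a helix-loop-helix transcription factor of tendon (r = 0.94), Gper1, a G protein-coupled oestrogen receptor (0.92), Septin11, a cytoskeletal GTPase (0.90), Jun, a subunit of the AP-1 transcription factor (0.90), and Mcat, an enzyme of mitochondrial fatty acid synthesis (0.89). Without the 3 ATF1/CREB1/CREM-KO libraries, r over the other 19 was 0.88, 0.88, 0.81, 0.76 and 0.77 in the same order. The genes were chosen for a high r over libraries that include these 19, so these values are no separate check. Libraries of a run share preparation and a fixed TPM total, and no test was made. Scx, for example, was at 88.7, 148 and 87.5 TPM in control clones 9 to 11 and at 23.7, 49.7 and 51.8 TPM in the libraries labelled ATF1/CREB1/CREM-KO (log2 difference -1.39, limma adjusted p = 0.053), and at 57.3, 115 and 241 TPM in ATF1/CREB1-KO replicates 1 to 3, the order of Id1 in those libraries. Scx, Gper1, Jun and Mcat overlap genes on the opposite strand.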

How the data were processed

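RNA was made into cDNA by template switching and sequenced with paired ends, per the labels' protocols. The submitters' processing notes name STAR and RSEM. Genome build, annotation and strand setting are not given in the sources used here. The deposited values are TPM, read as such because each column sums to between 999999 and 1000001. Of 40 samples in the labels, 22 were used and the 18 of the rescue experiment were not analysed here.

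The test was limma's (version 3.58.1, R 4.3.3; lmFit, then eBayes with a trend) on log2(TPM + 1). Genes whose mean over the compared libraries was under 1 TPM were left out. P-values were adjusted by Benjamini-Hochberg over all genes tested and called under 0.05. Differences between changes came from 1 fit with 6 group means. Alternatives were another pseudocount, other filters and scalings, all 11 control clones, run as a covariate, no trend, a replicate block and leaving out each library. The genes, gene lists and rules for naming genes (the 10 genes, 3 E protein genes, called pathway genes, and the 5 genes most like any called gene) were chosen with earlier results of these data known.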

Additional observations from a re-analysis of the deposited data

Results flagged for a closer look

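Tcf12 in control clone 5 was at 25.71 TPM, while control clones 1 to 4 were between 30.3 and 32.0 TPM. The gap was larger than Dixon's 95% critical value for 5 libraries, in 1 of 24 groups of values examined, and chance alone gives about 1 in 20. The own-run change of Tcf4 differed between ATF1/CREB1/CREM-KO and ATF1-KO by 0.85 on the log2 scale (limma adjusted p = 0.046), in 1 of 30 such tests of the named Id, Smad and E protein genes. Without a filter on low values, with a pseudocount of 0.1, with median-ratio scaling and without the trend the adjusted p was 0.0896, 0.0577, 0.0517 and 0.0509.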

How the results depend on the processing

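Against own-run control clones, the Id1 change under ATF1/CREB1/CREM-KO lay between -1.22 and -0.80 over 14 alternatives, with adjusted p from 0.0121 to 0.0985, and was called in 8. Id2 lay between 0.57 and 0.995 (adjusted p 0.00259 to 0.167) and was called in 3: median-ratio scaling, run as a covariate, and without replicate 1. Of the 7 genes, 2 were called with median-ratio scaling and 2 with run as a covariate, 0 without a filter, and 0 to 2 with 1 library left out. Of 327 changes of these genes over all alternatives, 20 had another sign than reported, none with a called value. The count of all genes called there was 710 without a filter, 137 with all 11 control clones and 185 (without control clone 9) to 3317 (without knockout replicate 1) with 1 library left out, against 1216. Each of the 6 left-out libraries moved it by over 1.5 times. It split into 518 higher and 698 lower as deposited, 666 and 620 with median-ratio scaling, and 697 and 610 with quantile normalization.

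For ATF1/CREB1-KO, against 9 genes called, the count was 0 without a filter, 18 with median-ratio scaling, 609 with run as a covariate, 2 without the trend and 0 to 60 with 1 library left out, the 60 without knockout replicate 3. With all 11 control clones, which mixes runs and moves the median of all genes to -0.96, it was 4260, and 4 of the 7 genes (the Smads) were called. That alternative also turned Septin11 under ATF1/CREB1/CREM-KO to 0.29 (adjusted p = 0.849), from -0.38. For ATF1-KO, 0 or 1 gene was called with 1 library left out. Genes called for differing between ATF1/CREB1/CREM-KO and ATF1/CREB1-KO were 16 with a pseudocount of 0.1, 15 with median-ratio scaling and 16 with quantile normalization, against 25. Between ATF1/CREB1-KO and ATF1-KO they were 120 without a filter, 403 with median-ratio scaling and 330 with quantile normalization, against 194. The cause of these shifts was not tested. Depth is unknown, so what it limits cannot be given.

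Replicate numbers 1 to 5 are shared by ATF1-KO and its control clones. Deviations of libraries with the same number correlated at -0.10, -0.03, 0.03, -0.09 and 0.08 over 13318 genes, and only number 5 correlated best with its own, so the numbers do not pair the libraries. With the replicate block, 0 genes and 0 of the 7 were called.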
